A study of Mus musculus with 6 samples.

Results

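The genes described are 8 cytotoxic effector genes and the 2 chains of CD8, 10 of the 53379 genes counted in follicular helper T (Tfh) cells sorted from mouse spleen. The effector genes are the granzymes *Gzma*, *Gzmb* and *Gzmk*, the pore protein *Prf1*, the granule membrane protein *Nkg7* and the chemokines *Ccl3*, *Ccl4* and *Ccl5*. The CD8 chains are *Cd8a* and *Cd8b1*, and they are kept apart from the effector genes throughout. The members were proposed with the difference between the groups already known, so that difference is given below as a description and supports nothing.

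Tfh cells are CD4+ T cells that help B cells in the germinal center. Killing by granules is mainly the work of CD8+ T cells and NK cells: perforin opens the membrane of the target cell, granzymes are serine proteases that enter and cleave proteins in it, and CCL3, CCL4 and CCL5 are secreted to recruit other leukocytes. CD8 is the coreceptor for MHC class I, made as a pair of alpha chains or as an alpha with a beta chain. The beta chain needs the alpha chain to reach the cell surface, and mature helper T cells carry CD4 and switch the CD8 genes off.

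RNA-seq was done on 3 CTL and 3 *Prdm1*-CKO female mice, 1 library per mouse, on day 7 after immunization with NP-CGG in CFA at an age of 6 to 8 weeks. *Prdm1*-CKO mice are *Prdm1* fl/fl; CD11c-Cre+, which removes BLIMP-1 from CD11c-high dendritic cells and not by design from T cells. CTL mice are *Prdm1* fl/fl; CD11c-Cre- or *Prdm1*+/+; CD11c-Cre+, and the labels do not say which each CTL mouse was. The labels name the second group Blimp1 KO in the titles and Blimp1 KD in the genotype field. The cells were live TCRβ+CD4+CXCR5+PD1+ and were not sorted on FOXP3, and *Foxp3* was at 134 to 181 CPM in the 6 mice. *Prdm1* itself was at 27.5 to 29.9 CPM in CTL and 30.1 to 30.8 CPM in *Prdm1*-CKO Tfh, and since T cells are not the target of the deletion, this level does not check the labels.

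Total counts ran from 7147601 to 16973392 per mouse, and CPM (counts scaled to library size with TMM factors) makes them comparable. At these depths 3 counts correspond to 0.169 to 0.443 CPM, a limit that covers counting error only. CTL replicate 2 stood apart from the other 5 mice on the first principal component, which held 56.4% of the variance, and differences are also given without it. Every one of the 12 Tfh marker genes had counts in every mouse, with *Cd4* at 772 to 1058 CPM and *Cxcr5* at 254 to 476 CPM. No label or method says that a library was pooled from several animals.

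Most of the effector genes had lower fitted levels in *Prdm1*-CKO than in CTL Tfh, but no member passed the test across all genes. All 10 members passed the expression filter. Of the 8 effector genes, 7 had a log2 fold change below 0 and *Gzmb* one above 0, with a median of -0.61. Over the 14555 genes tested the median was 0.010 and 48.9% lay below 0. In bulk RNA, fewer cells of a type and less RNA per cell cannot be told apart. The 2 CD8 chains pointed in opposite directions, with *Cd8a* at -2.02 (standard error 0.75) and *Cd8b1* at 0.44 (standard error 0.28). In edgeR's quasi-likelihood test with Benjamini-Hochberg adjustment, 0 of the 10 members and 0% of all genes tested had an adjusted p under 0.05 in either direction, and the smallest adjusted p of any gene was 0.996. At an unadjusted p under 0.05, 3 effector genes and *Cd8a* were lower and no member was higher, where 1.42% of the genes tested were lower and 0.928% higher. DESeq2's Wald test called 7 genes as higher and 2 as lower after adjustment, which is 0.0269% and 0.00768% of 26030 genes, and no member was among them.

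**Figure D1:**
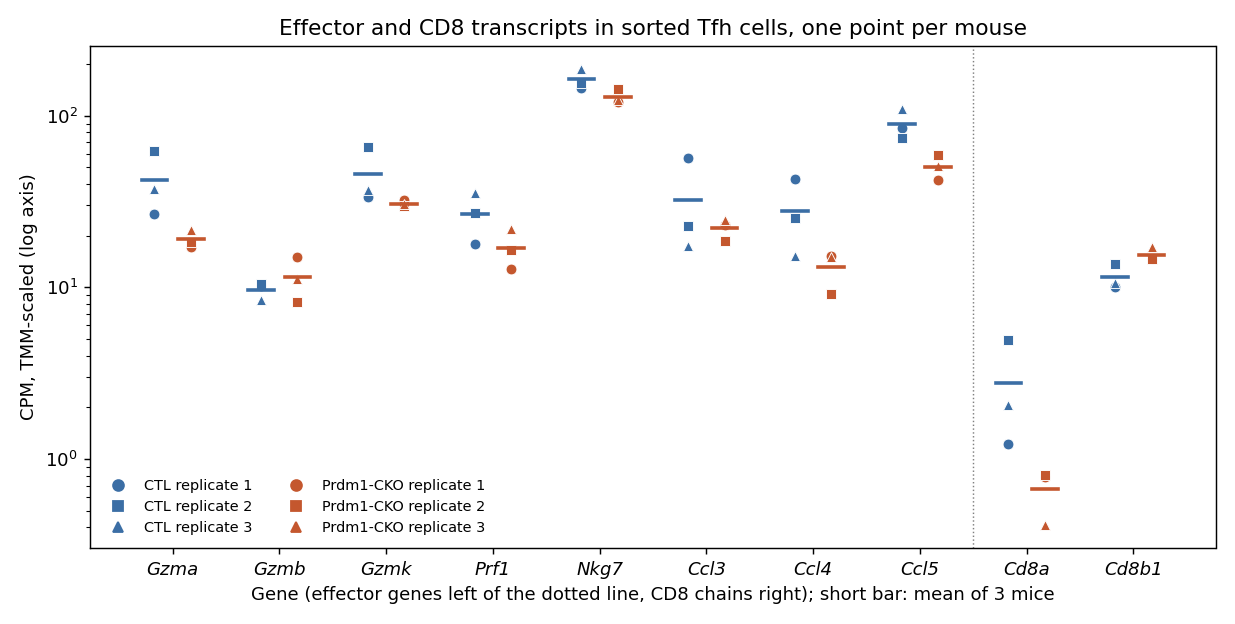
CPM of each gene in each mouse on a log axis, with circles, squares and triangles for replicates 1 to 3, blue for CTL and orange for Prdm1-CKO, and a short bar at the mean of 3 mice. Prdm1-CKO mice lie below all CTL mice for Gzma, Gzmk, Nkg7, Ccl5 and Cd8a and above them for Cd8b1, and Cd8a is the lowest of the 10 genes in every mouse.

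Among the granzymes, *Gzma* encodes a tryptase, *Gzmb* the protease that cuts after aspartate and triggers apoptosis, and *Gzmk* a second tryptase. *Gzma* and *Gzmk* both lie on chromosome 13 of GRCm38, from 113093825 to 113100981 and from 113171608 to 113225908 on the minus strand. *Gzmb* lies on the minus strand of chromosome 14 from 56258838 to 56262260. RefSeq (GRCm38.p6) gave a promoter for 7 of the 10 members, and those of the granzymes are shown so that the 3 members of 1 family can be read side by side. Each run is the 250 bases before the RefSeq start, 5′ to 3′ on the gene's strand. The bases after this start were not found in a GENCODE transcript for *Gzmb* and *Gzmk*, so for these genes the window precedes the RefSeq start and not a GENCODE start. The *Gzmk* window lies inside the gene span given above, since a longer GENCODE transcript begins farther upstream. Capitals mark the letters TGTGGT, the core bound by Runx factors, and AGGTGT, the core bound by T-box factors, each on either strand.
*Gzma*, chr13:113100982-113101231, minus strand: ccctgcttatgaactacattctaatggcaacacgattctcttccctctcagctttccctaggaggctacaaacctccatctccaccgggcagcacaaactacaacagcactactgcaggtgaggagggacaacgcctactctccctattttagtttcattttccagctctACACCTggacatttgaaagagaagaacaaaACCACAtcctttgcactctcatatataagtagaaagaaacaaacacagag
*Gzmb*, chr14:56262335-56262584, minus strand: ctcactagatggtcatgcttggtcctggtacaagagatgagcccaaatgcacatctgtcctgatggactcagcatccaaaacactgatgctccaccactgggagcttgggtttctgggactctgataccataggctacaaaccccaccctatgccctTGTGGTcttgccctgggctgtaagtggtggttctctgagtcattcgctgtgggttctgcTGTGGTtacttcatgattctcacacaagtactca
*Gzmk*, chr13:113180966-113181215, minus strand: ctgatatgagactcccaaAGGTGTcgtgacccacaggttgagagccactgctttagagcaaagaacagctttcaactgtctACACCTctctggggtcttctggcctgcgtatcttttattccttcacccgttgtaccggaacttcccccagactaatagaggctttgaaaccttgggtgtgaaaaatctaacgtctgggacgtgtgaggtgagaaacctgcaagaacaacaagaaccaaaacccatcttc

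The 3 windows differed in these letters. The *Gzma* window held 1 match to each motif, the *Gzmb* window held 2 matches to TGTGGT and none to AGGTGT, and the *Gzmk* window held 2 matches to AGGTGT and none to TGTGGT. The 2 motifs can overlap, and in these windows no matches did. Over 27025 promoters with a window of the same length, 14.2% held TGTGGT and 12% held AGGTGT. A match describes letters in a window and is no evidence of binding.

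For *Gzma*, CTL replicates 1 to 3 had 394, 526 and 255 counts, and *Prdm1*-CKO replicates 1 to 3 had 306, 181 and 317. Values per mouse follow this order throughout. Scaled to library size, *Gzma* was at 26.9, 62.2 and 37.6 CPM in CTL mice against 17.2, 18.4 and 21.7 CPM in *Prdm1*-CKO mice. All *Prdm1*-CKO mice lay below all CTL mice, and the CTL mice were far apart, with replicate 2 the highest. The means were 42.2 ± 18.1 CPM (SD, n = 3) in CTL and 19.1 ± 2.31 CPM (SD, n = 3) in *Prdm1*-CKO. The fitted log2 difference was -1.14 (standard error 0.32), and it was -0.77 without CTL replicate 2.

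Counts of *Gzmk* were 495, 558 and 249 against 572, 293 and 445. Its levels were 33.8, 65.9 and 36.8 CPM against 32.2, 29.7 and 30.4 CPM. The *Prdm1*-CKO mice lay close together and just under the lowest CTL mouse, and CTL replicate 2 again stood highest. The log2 fold change was -0.56 (standard error 0.28) and became -0.21 without CTL replicate 2.

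*Gzmb* was the least abundant of the 3 granzymes, with 148, 88 and 57 counts against 268, 81 and 164, or 10.1, 10.4 and 8.41 CPM against 15.1, 8.21 and 11.2 CPM. The groups overlapped, with both the highest and the lowest value in *Prdm1*-CKO mice, and the log2 fold change was 0.25 (standard error 0.34). It was 0.017 without *Prdm1*-CKO replicate 1 and 0.45 without *Prdm1*-CKO replicate 2. Of the 25-base stretches in its transcripts, the length of a read, 2.41% also occur in other genes, most of them in *Gzmc*. *Gzmc* itself was at 1.78, 7.80 and 0.591 CPM against 1.24, 0.203 and 1.02 CPM, below *Gzmb* in every mouse. No such stretch of *Gzma* or *Gzmk* occurs in another gene.

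Within a mouse the balance of *Gzmk* to *Gzma* also differed between the groups. The level of *Gzmk* per kilobase of exon over that of *Gzma* was 0.910, 0.768 and 0.707 in CTL and 1.35, 1.17 and 1.02 in *Prdm1*-CKO mice. *Gzmk* was thus the lower of the pair in every CTL mouse and the higher in every *Prdm1*-CKO mouse. This ratio uses the difference by which the genes were chosen and was not tested.

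*Prf1*, on chromosome 10 from 61297833 to 61304680, encodes perforin, without which granzymes do not reach the cytosol of a target. Its counts were 260, 231 and 241 against 226, 162 and 319, or 17.8, 27.3 and 35.6 CPM against 12.7, 16.4 and 21.8 CPM. The groups overlapped, with *Prdm1*-CKO replicate 3 above CTL replicate 1. The log2 fold change was -0.66 (standard error 0.33), and leaving out each mouse in turn gave values from -0.90 to -0.40.

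*Nkg7*, on chromosome 7 from 43437073 to 43438249, encodes a membrane protein of cytotoxic granules that takes part in their release. It had the most counts of the 10 genes in every mouse, from 1272 to 2151. *Nkg7* was at 145, 156 and 188 CPM against 121, 143 and 124 CPM. The highest *Prdm1*-CKO mouse lay just below the lowest CTL mouse, and the log2 fold change was the smallest among the 7 lower effector genes, at -0.33 (standard error 0.16).

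The chemokines lie together on chromosome 11, *Ccl5* from 83525778 to 83530518, *Ccl3* from 83647844 to 83649355 and *Ccl4* from 83662584 to 83664683. *Ccl5* is made by memory and effector T cells, and *Ccl3* and *Ccl4* are quickly induced in many activated leukocytes, macrophages among them. *Ccl5* had 1246, 627 and 737 counts against 747, 582 and 742, or 85.2, 74.1 and 109 CPM against 42.0, 59.0 and 50.7 CPM. All *Prdm1*-CKO mice lay below all CTL mice. The means were 89.3 ± 17.7 CPM (SD, n = 3) in CTL and 50.6 ± 8.51 CPM (SD, n = 3) in *Prdm1*-CKO. The fitted log2 difference of -0.82 (standard error 0.21) ran from -0.95 to -0.65 with each mouse left out.

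*Ccl3* and *Ccl4* were highest in the same mouse. Counts of *Ccl3* were 835, 193 and 118 against 412, 183 and 361, or 57.1, 22.8 and 17.4 CPM against 23.2, 18.6 and 24.7 CPM. CTL replicate 1 was far above the rest, CTL replicate 2 lay among the *Prdm1*-CKO mice and CTL replicate 3 below them. The log2 fold change was -0.56 (standard error 0.43) and turned to 0.13 without CTL replicate 1.

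Counts of *Ccl4* were 623, 216 and 103 against 271, 90 and 221, or 42.6, 25.5 and 15.2 CPM against 15.2, 9.13 and 15.1 CPM. CTL replicate 1 was again highest, and CTL replicate 3 was level with 2 of the *Prdm1*-CKO mice. The log2 fold change was -1.08 (standard error 0.40) and -0.64 without CTL replicate 1. Per kilobase, the level of *Ccl3* over that of *Ccl4* was 1.16, 0.770 and 0.987 in CTL and 1.31, 1.75 and 1.41 in *Prdm1*-CKO mice. *Ccl4* was the lower of the pair in each *Prdm1*-CKO mouse and in CTL replicate 1. The ratio uses the contrast on which the genes were chosen and was not tested. Macrophage and monocyte markers had counts in every mouse for 6 of 6 genes, with summed levels of 2266 to 4766 CPM in CTL and 3871 to 4632 CPM in *Prdm1*-CKO mice. All 6 had a log2 fold change above 0, with a median of 0.36, and 0 passed the test. CTL replicate 1 had the highest sum, at 4766 CPM, near the 4598 and 4632 CPM of *Prdm1*-CKO replicates 1 and 3. The part of these cells in the chemokine values was not tested.

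The CTL mice did not lead together. CTL replicate 1 had the highest level of *Ccl3* and *Ccl4*, CTL replicate 2 of *Gzma* and *Gzmk*, and CTL replicate 3 of *Prf1*, *Nkg7* and *Ccl5*, while *Gzmb* was highest in *Prdm1*-CKO replicate 1. The sum over the 8 effector genes was alike within a group, at 418, 444 and 448 CPM in CTL against 279, 303 and 299 CPM in *Prdm1*-CKO mice. These sums use the contrast on which the genes were chosen, and the gap between the groups was not tested. *Nkg7* made up the largest part of each sum.

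Every *Prdm1*-CKO mouse lay below every CTL mouse for 4 of the 8 effector genes and for *Cd8a*, and above for *Cd8b1*. Over all genes tested, 3.88% had every *Prdm1*-CKO mouse below and 4.56% above. The genes were chosen on this same contrast, so nothing is read from their share.

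**Figure D2:**
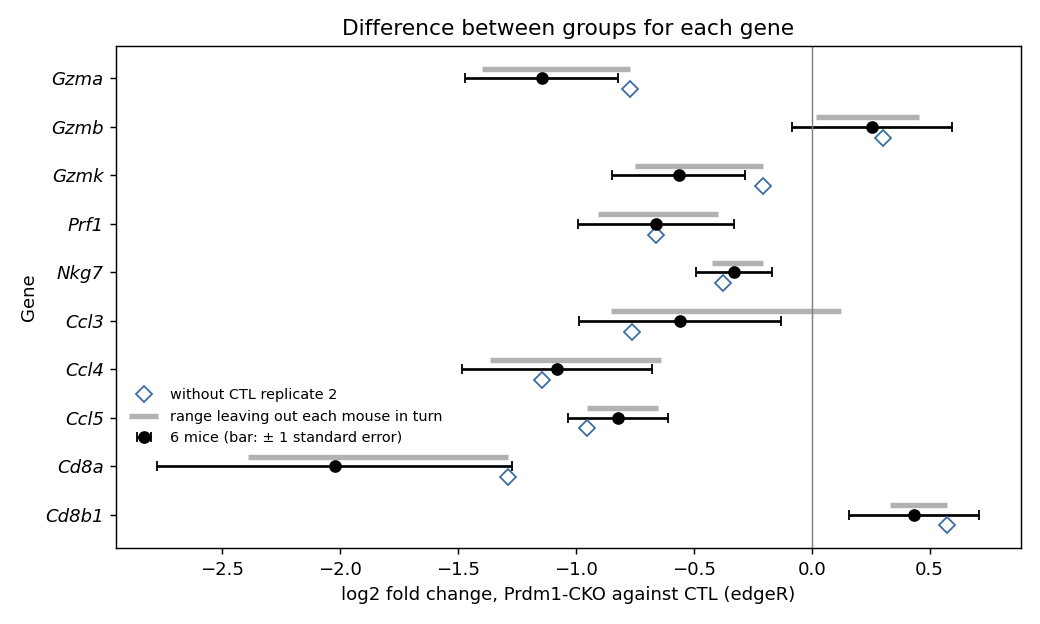
Log2 fold change of Prdm1-CKO against CTL for each gene, with black points and bars for the fit of 6 mice ± 1 standard error, open diamonds for the fit without CTL replicate 2 and grey bars for the range over fits that leave out 1 mouse each. Cd8a is lowest at -2.02 and moves to -1.29 without CTL replicate 2, and the range of Ccl3 crosses 0.

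The CD8 chains lie side by side on chromosome 6, *Cd8b1* from 71322788 to 71337494 and *Cd8a* from 71373427 to 71379173, both on the plus strand. *Cd8a* had few reads, with 18, 42 and 14 counts against 14, 8 and 6. Its levels were 1.23, 4.96 and 2.07 CPM against 0.787, 0.811 and 0.410 CPM. All *Prdm1*-CKO mice lay below all CTL mice, and CTL replicate 2 was well above the other mice. The log2 fold change of -2.02 became -1.29 without CTL replicate 2.

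*Cd8b1* had more reads and the opposite order of the groups, with 146, 116 and 72 counts against 261, 144 and 250. Its levels were 9.98, 13.7 and 10.6 CPM against 14.7, 14.6 and 17.1 CPM. The lowest *Prdm1*-CKO mouse exceeded the highest CTL mouse. The means were 11.4 ± 1.99 CPM (SD, n = 3) in CTL and 15.5 ± 1.41 CPM (SD, n = 3) in *Prdm1*-CKO, and the log2 fold change ran from 0.33 to 0.58 with each mouse left out. No exon of another gene overlaps either chain, and 8.77% of the 25-base stretches of *Cd8b1* and 4.35% of those of *Cd8a* occur in transcripts of other genes. The handling of such reads is not given in the sources used here.

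The chains were thus far from equal in every mouse. Per kilobase of exon, *Cd8b1* was 19.9, 6.77 and 12.6 times the level of *Cd8a* in CTL and 45.7, 44.1 and 102 times in *Prdm1*-CKO mice. The smallest ratio was in CTL replicate 2, the mouse with the most *Cd8a*, and all *Prdm1*-CKO mice exceeded all CTL mice. This ratio uses the contrast on which the genes were chosen and was not tested. In *Prdm1*-CKO mice it rests on only 14, 8 and 6 counts of *Cd8a*. Against *Cd4*, the coreceptor on which the cells were sorted, *Cd8a* was at 0.0538% to 0.520% and *Cd8b1* at 2.81% to 5.50% of its level per kilobase. *Cd4* itself was lower in all *Prdm1*-CKO mice than in any CTL mouse, with means of 813 ± 37.5 CPM and 994 ± 87.8 CPM (SD, n = 3 each) and an adjusted p of 0.996 in edgeR. Of the 12 Tfh markers, 3 had this order, *Cd4*, *Cd28* and *Slamf6*, and 0 the opposite, where 3.88% and 4.56% of all genes tested did. Their log2 fold changes were -0.29, -0.36 and -0.21, and the median over the 12 was -0.028, with 5 above and 7 below 0. As a percentage of *Cd4* per kilobase, *Gzmk*, *Nkg7* and *Ccl5* overlapped between the groups, while *Gzma* stayed lower in every *Prdm1*-CKO mouse. Each effector gene exceeded *Cd8a* per kilobase in every mouse, and *Prf1* was at 7.74 to 74.8 times and *Nkg7* at 125 to 1202 times the level of *Cd8a* per kilobase.

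**Figure D3:**
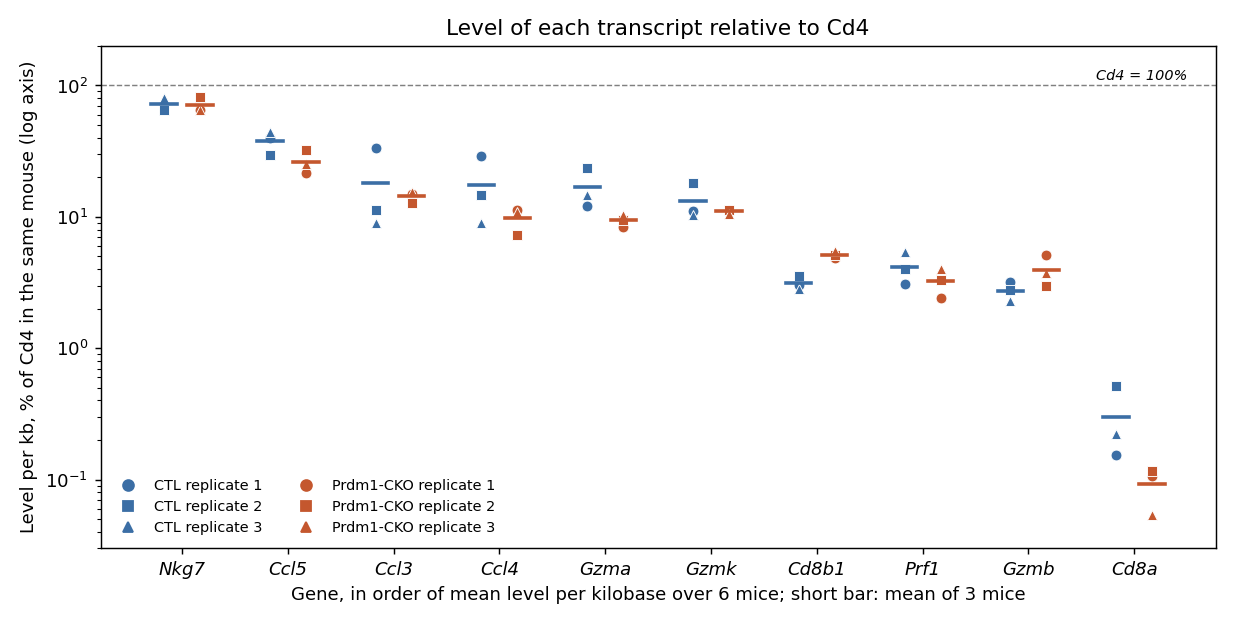
Level per kilobase of exon of each gene as a percentage of Cd4 in the same mouse, on a log axis, in order of the mean level over 6 mice, with colors and symbols by group and replicate and a short bar at the mean of 3 mice. Nkg7 lies at 64.7% to 81.9% of Cd4, and Cd8a lies under 1% in each mouse while Cd8b1 lies between 2.81% and 5.50%.

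The genes were ordered by their level per kilobase, pooled over the 2 groups. Mean levels over the 6 mice were 160 CPM per kb for *Nkg7*, 72.9 for *Ccl5*, 35.6 for *Ccl3*, 31.0 for *Ccl4*, 30.5 for *Gzma* and 27.5 for *Gzmk*. They were 9.07 CPM per kb for *Cd8b1*, 8.49 for *Prf1*, 7.36 for *Gzmb* and 0.470 for *Cd8a*. Between neighbors in this order, 4 steps had the same sign in 6 of 6 mice. *Nkg7* exceeded *Ccl5* by 1.19 ± 0.30 (SD, n = 6) on the log2 scale, and *Ccl5* exceeded *Ccl3* by 1.08 ± 0.75. *Gzmk* exceeded *Cd8b1* by 1.55 ± 0.55, and *Gzmb* exceeded *Cd8a* by 4.22 ± 1.23 (SD, n = 6).

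Each of these 4 steps had p = 0.0312 in a two-sided exact sign-flip permutation test over 6 mice, the smallest they allow. The adjusted p was 0.0703 over the 9 neighboring pairs, which misses the threshold. The pairs and their direction came from the order in these same mice, so the test gives the steps no independent support. The other 5 neighboring pairs had differences from 0.0075 to 0.25 on the log2 scale, with 3 or 4 of 6 mice above 0, and were smaller than their SD between mice. In 2 of these pairs the order split by group. *Gzma* exceeded *Gzmk*, and *Prf1* exceeded *Cd8b1*, in all 3 CTL mice and in none of the *Prdm1*-CKO mice. These splits follow the contrast on which the genes were chosen and were not tested.

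The other genes of granule killing were spread about 0. Of 24 genes of the granule and killing machinery, 20 passed the expression filter and 0 had an adjusted p under 0.05 (edgeR), with 9 above and 11 below 0, a median log2 fold change of -0.026 and none at an unadjusted p under 0.05. *Srgn*, the proteoglycan that holds granzymes in the granule, was at 617 ± 56.7 CPM (SD, n = 3) in CTL and 676 ± 78.8 CPM (SD, n = 3) in *Prdm1*-CKO. *Ctsc*, which activates granzymes by trimming them, was at 181 ± 69.9 CPM against 256 ± 38.0 CPM (SD, n = 3 each). *Fasl*, the ligand of the other route of killing, was at 27.4 ± 2.08 CPM against 26.8 ± 6.50 CPM (SD, n = 3 each). *Gzmd*, *Gzme* and *Gzmg* had 0 counts in all 6 mice, which the depth limits to the level of 3 counts given above.

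The list of transcription factors of cytotoxic cells also holds *Zbtb7b* and *Gata3*, factors of helper T cells. It was measured in full, with 11 of 11 past the filter, 4 above and 7 below 0, *Zbtb7b* and *Gata3* among the latter. The median of -0.096 was the value of *Zbtb7b*, and 0 passed the test in either direction. *Runx3*, which keeps *Cd8a* on and *Cd4* off in CD8+ T cells, was at 59.7 ± 11.8 CPM (SD, n = 3) in CTL and 59.5 ± 12.5 CPM (SD, n = 3) in *Prdm1*-CKO. *Tbx21*, which encodes T-BET and drives effector genes, was at 73.1 ± 22.9 CPM against 73.9 ± 4.23 CPM, and *Zbtb7b*, which holds the helper fate, at 24.0 ± 7.82 CPM against 22.5 ± 2.14 CPM (SD, n = 3 each). Among 14 other inflammatory chemokines and receptors, 11 passed the filter, 9 lay above and 2 below 0 with a median of 0.33, and 0 passed the test. At an unadjusted p under 0.05 neither of these lists held a gene.

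**Figure D4:**
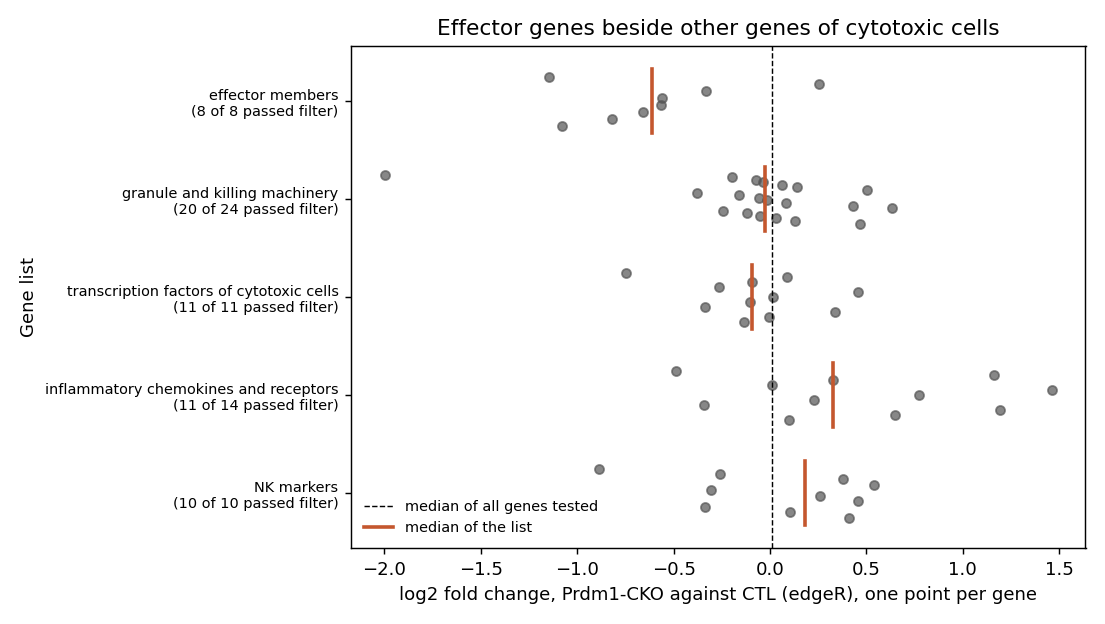
Log2 fold change of Prdm1-CKO against CTL, 1 point per gene that passed the expression filter, for the effector genes and 4 other lists, with orange bars at the median of a list and a dashed line at the median of all genes tested. The effector median is -0.61, and the medians of the other lists lie between -0.096 and 0.33. The effector genes were chosen with this contrast known, so nothing is read from the gap between these medians.

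Genes of other cells that carry these transcripts were present. All 10 NK markers had counts in every mouse, with a summed level of 434 to 804 CPM in CTL and 762 to 801 CPM in *Prdm1*-CKO mice, most of it from *Fcer1g* and *Tyrobp*, which macrophages share. *Ncr1*, a receptor of NK cells and innate lymphoid cells, was at 6.15, 13.7 and 16.1 CPM against 6.13, 4.36 and 8.81 CPM. *Klrb1c*, the NK1.1 antigen, was at 15.3, 26.7 and 20.7 CPM against 17.4, 13.7 and 21.1 CPM. Both overlapped between the groups, with log2 fold changes of -0.89 (standard error 0.47) for *Ncr1* and -0.26 (standard error 0.30) for *Klrb1c*. Other receptors of the list went both ways. *Klrd1* was at 0.10 (standard error 0.33), *Klre1* at 0.26 (standard error 0.56) and *Klra8* at 0.54 (standard error 0.83). *Klrk1* was at -0.34 (standard error 0.33) and *Itga2* at -0.30 (standard error 0.48). Over the 10 NK markers 6 lay above and 4 below 0, with a median of 0.18, and none passed the test. Their part in the effector values was not tested.

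Basophil and mast cell markers had counts in every mouse for 5 of 5 genes, with sums of 24.7 to 84.9 CPM in CTL and 38.1 to 52.7 CPM in *Prdm1*-CKO mice. In this list 2 genes lay above and 3 below 0, with a median log2 fold change of -0.27. Among them *Fcer1a*, the alpha chain of the IgE receptor, was at 6.29, 12.1 and 12.1 CPM against 2.64, 3.65 and 3.96 CPM. Its groups did not overlap, and the log2 fold change of -1.57 (standard error 0.44) had an adjusted p of 0.996 in edgeR. Gamma-delta T cell markers summed to 11.8 to 17.7 CPM against 9.23 to 20.8 CPM, and NKT markers to 27.1 to 30.9 CPM against 23.6 to 29.5 CPM. The NKT list shares *Klrb1c* with the NK list. Plasmacytoid dendritic cells also make *Gzmb*. Of their 4 markers *Siglech* had at most 0.615 CPM in any mouse, and the other 3, *Ccr9*, *Bst2* and *Pacsin1*, had counts in every mouse. The 4 summed to 95.9 to 133 CPM in CTL and 110 to 128 CPM in *Prdm1*-CKO mice, most of it from *Bst2* and *Pacsin1*. Of the 3 that passed the expression filter, 2 lay above and 1 below 0, with a median log2 fold change of 0.18. *Bst2* was higher in every *Prdm1*-CKO mouse than in any CTL mouse, with a log2 fold change of 0.29 (standard error 0.21). Neutrophil markers summed to 49.1 to 120 CPM in CTL and 70.7 to 108 CPM in *Prdm1*-CKO mice. The groups overlapped in each of these sums, and the part of these cells in the values above was not tested.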

How the data were processed

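Tfh cells sorted from the spleens of 6 mice gave 1 Smart-seq2 library each. The authors deposited raw counts of reads per gene, made with featureCounts (1.4.6 in the methods) from paired reads of 25 bp on GRCm38, and the submitters' processing notes name STAR 2.4.2a and DESeq2. Strand setting and the handling of multiply aligned reads are not given in the sources used here.

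Symbols and exon lengths came from GENCODE M21, which held 53274 of 53379 identifiers, including all 10 members in the same version. Counts were fitted with edgeR 4.0.16 in R 4.3.3 (TMM, filterByExpr, quasi-likelihood test, no covariate) on 14555 genes, and the steps were tested on simulated data. Levels are CPM with TMM factors, log2 CPM used a prior count of 2, and levels per kilobase used the union of exons. Tests were two-sided. No library pair was identical. Nothing says whether same-numbered mice share a litter or day.

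The members and lists were chosen with earlier results of these data known. The named genes were the members, genes of the fixed lists picked by level or role, and those most like the members across mice. Alternatives were DESeq2 1.42.0 and its size factors, a minimum of 10 counts in every mouse, no expression filter, each mouse left out, the replicate block, another length, no TMM factors and another prior. Calls in the lists of other genes under these alternatives were added after seeing the data. The genes of these lists that are left unnamed have no values of their own in the text, though the counts, sums and medians include them.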

Additional observations from a re-analysis of the deposited data

How the results depend on the processing

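Counts of genes at an adjusted p under 0.05, 0 higher and 0 lower in edgeR, became 7 and 2 in DESeq2's Wald test and 1 and 0 without an expression filter, and stayed at 0 and 0 in the other alternatives, the fits without 1 mouse included. No member or other gene of the pathway lists was called in any fit. The sign of the log2 fold change held in 108 of 109 pairs of a member and an alternative fit. The exception was *Ccl3* at 0.13 without CTL replicate 1, in a range of -0.85 to 0.13 with each mouse left out. The median over the effector genes ran from -0.73 to -0.58 with each mouse left out. That over the 2 CD8 chains ran from -1.03 to -0.36 and was 0.44 with at least 10 counts in every mouse, which leaves *Cd8b1* alone. With the replicate block the medians were -0.57 and -0.70 and no gene was called. After subtraction of the group means, the correlations of same-numbered mice were 0.158, 0.028 and 0.016. The mean for other-numbered mice was -0.033. With 3 mice in each group, these values cannot tell whether the replicate numbers pair the mice. Between 6 and 10 of the 10 genes kept their rank by level when a mouse was left out, with 6 without CTL replicate 1 or *Prdm1*-CKO replicate 1. With the longest transcript as the length, *Ccl4* minus *Gzma* was -0.0069 and *Gzma* minus *Gzmk* was -0.020. Depth limits *Cd8a* most, at 6 to 42 counts per mouse.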

Other observations

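Over the 6 mice, the 5 genes whose log2 CPM was most like the mean of the 8 effector genes, among 10720 genes with a mean of at least 5 CPM, were *Evl*, *Zfp282*, *Ccdc138*, *Dctd* and *Lcp2*, with Pearson's r from 0.965 to 0.983. *Lcp2* encodes the T cell receptor adaptor SLP-76, and *Evl* a regulator of actin. *Evl* was at 61.9, 63.8 and 57.3 CPM in CTL and 48.1, 49.2 and 51.1 CPM in *Prdm1*-CKO mice, an order that its choice by likeness to the effector genes largely sets. Without CTL replicate 2 the r of these genes ran from 0.947 to 0.975 over 5 mice, and 0 of the 5 remained among the 5 most alike.

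The genes most like the mean of the CD8 chains were *Atp10a*, *Cep57*, *Acrbp*, *Cd2ap* and *Acad11*, with r from 0.984 to 0.994, and each was highest in CTL replicate 2. That mean follows *Cd8a*, which spanned -0.80 to 2.36 in log2 CPM over the 6 mice, more than *Cd8b1*, which spanned 3.34 to 4.11 and was highest in *Prdm1*-CKO replicate 3. *Atp10a* was at 40.2 CPM in CTL replicate 2 and between 13.3 and 20.4 CPM in the other mice. Without CTL replicate 2, 0 of the 5 remained among the 5 most alike. These values describe 6 libraries that share that mouse, and they carry no test.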
